A study of Mus musculus with 6 samples.

Results

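Matricellular proteins are secreted into the extracellular matrix, where they bind matrix fibres, growth factors and cell surface receptors rather than serving mainly as structural material. The CCN proteins (Ctgf, Cyr61, Wisp1 and Wisp2 here) and the thrombospondins (Thbs1, Thbs2 and Thbs3) are 2 such families, and tenascin C (Tnc), periostin (Postn) and Sparc are further members of the class. Many of them are scarce in resting adult tissue and abundant in developing tissue, in wounds and in fibroblasts under tension, and periostin and tenascin C are well known from the mesenchyme of the developing tooth. All 10 listed genes were found by name among the 11386 genes of the deposited tables.

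The cells were mouse dental mesenchymal cells (mDMCs) of the ICR strain, taken from the lower first molar germs of E14.5 embryos. Freshly isolated cells were named P0. Cells grown in Dulbecco's modified Eagle's medium with fetal bovine serum and sampled at the first passage were named P1, and those sampled at the second passage P2. The labels name no transgene or drug in any of the 3 groups, and each had 2 libraries, 6 in all. The tooth germs were treated with dispase to separate the epithelium, and the mesenchymal tissue was then dissociated with trypsin. P0 cells came fresh from this treatment, whereas P1 and P2 cells were harvested from culture with trypsin. This difference in handling cannot be told apart from culture itself. The comparison asks how these genes differ between cultured and freshly isolated cells. Whether the 2 libraries of a passage came from separate cell isolations is not stated, so the p-values measure only the spread between these libraries, which may be technical. For each gene this spread is partly borrowed from the other genes.

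Each table gives a mean and an error per gene, from which both library values of a passage were recovered as whole numbers, within a tolerance of 1e-06. They were divided by the total of their passage and multiplied to a total of 1000000, and are called scaled units below. The values had already been normalized to a nearly common distribution, so the depth of the libraries is unknown. In each library 10 genes shared the highest value, 133818 before scaling, the next 10 lay between 64052 and 64247, and the 10 after those between 43719 and 43903. The highest genes are therefore ordered in steps and their fold changes are not exact. The summed level of 15 dental mesenchyme markers was 20014 units in P0, 23966 in P1 and 23058 in P2 cells, and all 15 were measured. This sum is carried by its highest genes: 6 of the 15 were called lower and 2 higher in each culture, with median log2 changes of -0.48 in P1 and -0.51 in P2. Markers of vessels, blood and epithelium were higher in P0: 12 endothelial genes summed to 530 units in P0, 18.1 in P1 and 13.4 in P2 cells, and 7 measured genes of red cells and platelets (of 12 listed) summed to 12087, 2.32 and 4.76 units. The 4 measured epithelial genes (of 13 listed) summed to 69.6, 1.74 and 1.55 units. Every measured gene had at least 2 libraries at 101 or more before scaling. The blood and epithelial genes, and part of the endothelial genes, could not meet this level in the cultures alone. Their higher P0 level is therefore partly a condition of being measured.

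Promoter sequence is shown for Cyr61, Postn and Sparc, because these are the genes of the highest level per transcript length in P0 cells and they behaved differently in culture. The RefSeq windows, on the mouse build GRCm38.p6, run from 250 bases before to 50 bases after the annotated start, and 6 of the 10 genes had one. The Cyr61 window (listed there as Ccn1) is chr3:145649936-145650235 on the minus strand. The Postn window is chr3:54360857-54361156 on the plus strand, whose start lies 2 bases from that of the deposited tables. The Sparc window is chr11:55420031-55420330 on the minus strand. Capitals mark matches, on either strand, to a TEAD motif (GGAATG), an AP-1 motif (TGANTCA), the CArG box, a TATA box (TATAAA) or a GC box (GGGCGG).
Cyr61: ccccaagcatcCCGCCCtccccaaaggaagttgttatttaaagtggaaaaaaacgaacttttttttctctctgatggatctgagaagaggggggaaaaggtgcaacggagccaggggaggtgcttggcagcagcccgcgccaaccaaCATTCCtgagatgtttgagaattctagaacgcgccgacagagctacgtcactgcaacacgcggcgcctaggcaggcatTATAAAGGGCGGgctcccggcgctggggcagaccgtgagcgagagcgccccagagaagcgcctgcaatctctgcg
Postn: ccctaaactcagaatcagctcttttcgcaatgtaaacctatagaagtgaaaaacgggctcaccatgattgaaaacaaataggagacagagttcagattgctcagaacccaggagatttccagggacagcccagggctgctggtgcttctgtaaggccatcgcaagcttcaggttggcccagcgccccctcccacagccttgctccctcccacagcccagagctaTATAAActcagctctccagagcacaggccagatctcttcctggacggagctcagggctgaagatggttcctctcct
Sparc: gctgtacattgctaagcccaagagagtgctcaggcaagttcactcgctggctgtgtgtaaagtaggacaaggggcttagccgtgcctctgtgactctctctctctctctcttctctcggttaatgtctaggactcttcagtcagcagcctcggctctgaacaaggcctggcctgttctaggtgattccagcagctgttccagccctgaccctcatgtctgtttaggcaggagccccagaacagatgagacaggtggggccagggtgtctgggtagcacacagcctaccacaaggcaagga
In the Cyr61 window the capitals at -103 to -98 are a TEAD match, counted from the start, those at -25 to -20 the TATA box, and those at -239 to -234 and -19 to -14 are GC boxes. The Postn window held a TATA box at -26 to -21, and the Sparc window held none of the 5 motifs. Of 32851 mouse promoter windows of the same length, 14.7% held the TEAD motif, 7.81% the AP-1 motif, 1.63% the CArG box, 13.6% the TATA box and 35.7% the GC box. Among the windows of the other matched genes, the Thbs3 window held a GC box at -21 to -16 and the Thbs2 window a TATA box match on the minus strand. Both Tnc windows, whose starts lie 26290 and 26211 bases from that of the deposited tables, overlap and held the same matches. From the first start these were a TATA box motif at -126 to -121 and a GC box at -167 to -162. Counted from the second start, they lie at -205 to -200 and -246 to -241. A second Postn window held no match. Among the genes with a window, only Cyr61 had a TEAD match. Ctgf, Wisp1, Wisp2 and Thbs1 had no window, so their promoters were not searched. A match is a run of letters and not a measured binding site.

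5 of these genes were higher in both cultures: Ctgf, Wisp1, Wisp2, Thbs1 and Sparc. Thbs3 was also higher in P2 cells. Cyr61, Thbs2 and Tnc did not pass the test in any comparison, and Postn passed the p threshold below the fold minimum. A gene was called when its adjusted p was under 0.05 and its change at least 2-fold, on log2 of the scaled value plus 1, in limma fitted to all 6 libraries with Benjamini-Hochberg adjustment over 11386 genes. In P1 against P0 cells, 5 of the 10 genes were called higher and 0 lower, beside 12.2% of all genes higher and 12.0% lower. The P2 against P0 comparison had 6 of the 10 called higher and 0 lower, beside 14.0% of all genes higher and 14.4% lower. The median log2 change of the 10 genes was 1.74 in P1 and 2.32 in P2 cells against P0, and that of all genes 0.02 and 0.01. Both comparisons use the same P0 libraries. Wisp2, counted as higher in both, met the level for being measured only through the cultured libraries, so its direction is partly set by that. The 10 genes and the lists used below were chosen with earlier results of these data known. Their counts beside the shares of all genes are therefore descriptions and no test of enrichment.

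**Figure D1:**
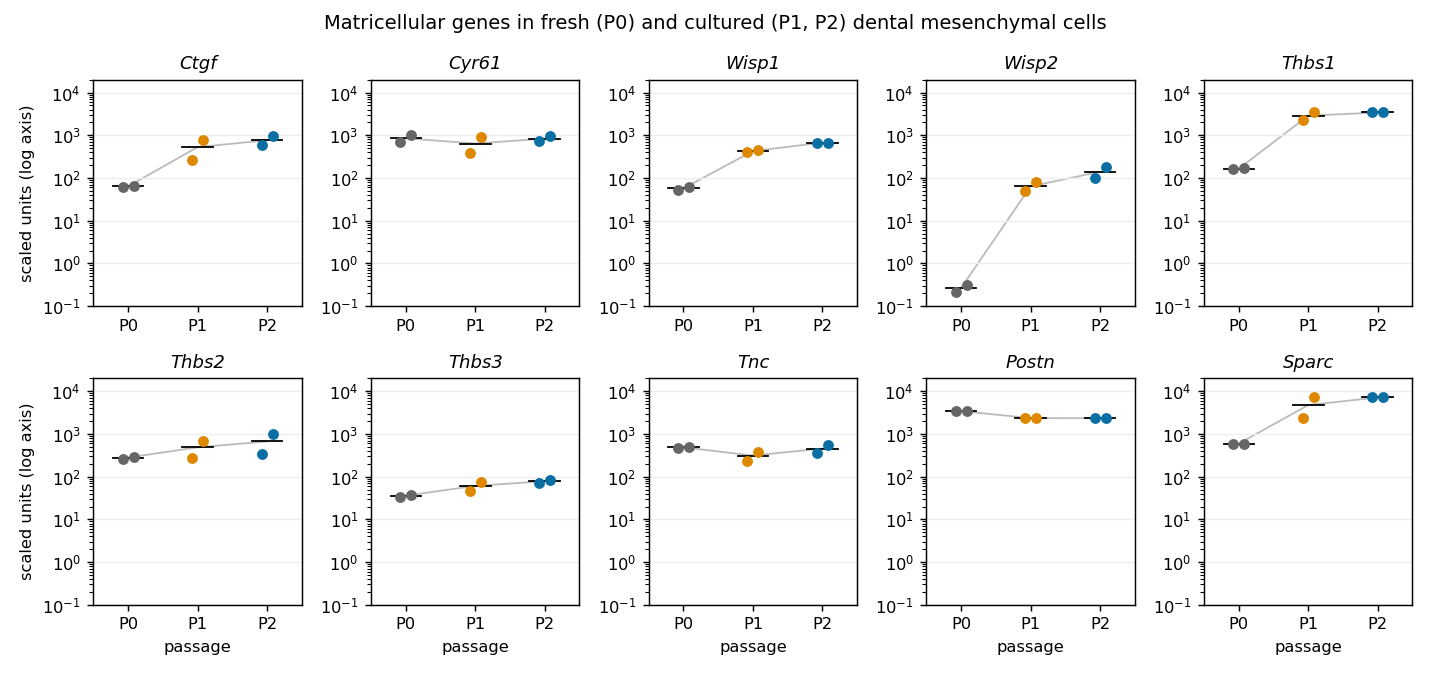
Scaled units (log axis) of the 10 genes in each library by passage, with points for the 2 libraries of a passage, black bars for their mean and a grey line joining the means. Wisp2 moves furthest, with P0 values of 0.214 and 0.321 units against P2 values of 102 and 179, while the P0, P1 and P2 points of Cyr61 overlap.

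Ctgf (ENSMUSG00000019997, 5 exons at chr10:24595442-24598678 of mm10, plus strand) encodes connective tissue growth factor, CCN2, a secreted protein that binds integrins and growth factors and is a widely used target gene of the YAP co-activator. It measured 60.9 and 66.6 units in the P0 libraries, 265 and 794 in P1 and 594 and 939 in P2. All 4 cultured libraries lay above both P0 libraries, and the P1 and P2 libraries overlapped. The change was 2.83 ± 0.50 (SE) on the log2 scale in P1 against P0 (adjusted p = 0.00413, limma) and 3.53 ± 0.50 in P2 against P0 (adjusted p = 0.00143, limma). The P1 libraries differed widely, and without 1 or the other of them the P1 change was 2.04 to 3.62 and stayed a call. Ctgf moved up within the table, with 69.4% of genes below it in P0, 98.0% in P1 and 98.8% in P2 cells.

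Cyr61 (ENSMUSG00000028195, chr3:145646971-145649985, minus strand) encodes CCN1, the other CCN protein that is a standard YAP target and an early response gene to serum and tension. It measured 700 and 1001 units in P0, 388 and 895 in P1 and 735 and 941 in P2 cells. The 3 passages overlapped throughout. The difference was -0.50 in P1 against P0 (adjusted p = 0.311, limma), with a 95% interval of -1.47 to 0.46, and -0.01 in P2 against P0 (adjusted p = 0.986, limma), with an interval of -0.98 to 0.96. The P1 interval includes a 2-fold lower level and the P2 interval ends just short of 2-fold on either side, so smaller differences were not resolved with 2 libraries per passage. One library decided the P1 call: without the higher P1 value the difference was -1.11 and was called lower, and without the lower one it was 0.097.

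Wisp1 (ENSMUSG00000005124, chr15:66891320-66923201, plus strand) encodes CCN4, first described as a Wnt-induced gene and known from bone-forming and wound mesenchyme. Its values were 52.0 and 62.4 units in P0, 403 and 453 in P1, and 672 in both P2 libraries. The passages did not overlap. The log2 change was 2.88 ± 0.12 in P1 (adjusted p = 3.44e-05, limma) and 3.54 ± 0.12 in P2 (adjusted p = 1.52e-05, limma). The P2 values were exactly equal, which normalized values can be at shared steps, so the small SE is not a measure of how closely the libraries agreed.

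Wisp2 (ENSMUSG00000027656, chr2:163820889-163833146, plus strand) encodes CCN5, the CCN protein that lacks the C-terminal cystine knot module found in the others. Its level in fresh cells was 0.214 and 0.321 units (4 and 6 before scaling), with 0.351% of the listed genes below it. Every gene in the tables had at least 2 libraries at 101 or more before scaling, so genes low in all passages are not listed. Wisp2 met this level only through the cultured libraries, so its direction is partly a condition of being measured. In culture it measured 48.3 and 79.1 units in P1 and 102 and 179 in P2 cells. Every cultured library exceeded every P0 library, and both P2 libraries exceeded both P1 libraries. The log2 change was 5.63 ± 0.32 in P1 (adjusted p = 9.19e-05, limma) and 6.75 ± 0.32 in P2 (adjusted p = 3.78e-05, limma). Its size depends on the pseudocount, since the P0 values lie below 1 unit: with a pseudocount of 0.1 and with one of 5 the change was 7.41 and 3.67 in P1 and 8.54 and 4.73 in P2. It was the largest of the 10 genes at the pseudocount of 1, but at 5 the P1 change of Thbs1, 4.05, was larger. The ratio of the plain means was 238 in P1 and 525 in P2 over P0.

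**Figure D2:**
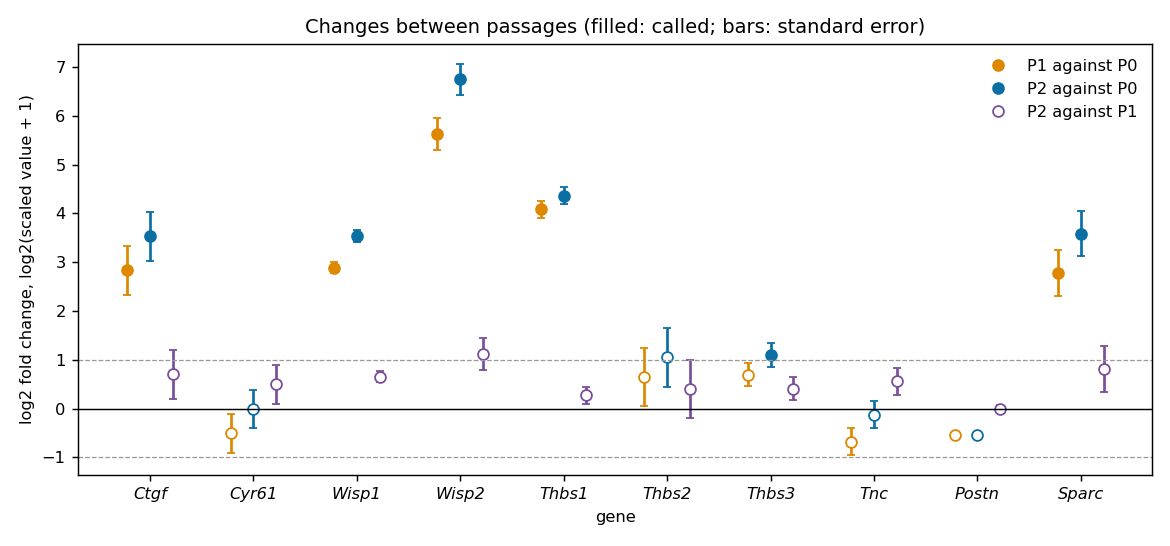
Log2 fold change of each gene with its standard error (bars) in P1 against P0, P2 against P0 and P2 against P1, where filled points passed the call and dashed lines mark a 2-fold change. The filled points run from 1.10 (Thbs3, P2 against P0) to 6.75 (Wisp2, P2 against P0), and every P2 against P1 point is open.

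Thbs1 (ENSMUSG00000040152, chr2:118111876-118127133, plus strand) encodes thrombospondin 1, a trimeric glycoprotein that binds the receptors CD36 and CD47, releases latent TGF-beta and inhibits angiogenesis. It stood at 164 and 168 units in P0, 2335 and 3421 in P1, and 3422 in both P2 libraries. All cultured values were more than 10 times the P0 values. The log2 change was 4.08 ± 0.18 in P1 (adjusted p = 3.92e-05, limma) and 4.36 ± 0.18 in P2 (adjusted p = 2.33e-05, limma), and the ratio of means was 17.4 and 20.6. Both P2 values and the higher P1 value lay at 64052 before scaling, the lower edge of the second step from the top, so a further rise within that step could not be seen.

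Thbs2 (ENSMUSG00000023885, chr17:14665500-14694262, minus strand) encodes thrombospondin 2, the other trimer of this family, with a role in collagen fibril assembly in mouse skin and tendon. Its values were 264 and 296 units in P0, 275 and 697 in P1 and 337 and 997 in P2 cells. One library of each culture lay near the P0 level and the other well above it. The difference was 0.64 in P1 (adjusted p = 0.385, limma; 95% interval -0.82 to 2.10) and 1.05 in P2 (adjusted p = 0.17, limma; interval -0.41 to 2.51). Without the lower P2 value it was 1.83 and was called higher, and without the higher P2 value it was 0.27 (adjusted p = 0.683, limma), so the outcome for this gene rested on 1 library.

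Thbs3 (ENSMUSG00000028047, chr3:89215180-89226837, plus strand) encodes thrombospondin 3, a pentameric member found in cartilage, bone and other connective tissue. It measured 33.9 and 38.0 units in P0, 45.2 and 76.2 in P1 and 72.3 and 84.5 in P2 cells. The P0 libraries were below all cultured libraries, and P1 and P2 overlapped. The change was 0.69 ± 0.24 in P1 (adjusted p = 0.0485, limma), under the fold minimum, and 1.10 ± 0.24 in P2 (adjusted p = 0.00844, limma), a call. It was the smallest change that was called: without the higher P2 value it was 0.99 (adjusted p = 0.0402, limma) and fell short of the fold minimum. Thbs3 shares 273 of the 3190 bases of its transcript with exons of Mtx1 on the opposite strand. Mtx1, which encodes a mitochondrial outer membrane protein and was looked at after the Thbs3 values were seen, differed by 0.07 in P1 and -0.14 in P2 and was not called. Among the other genes, 541 bases of the Ctgf transcript, 187 of Thbs1 and 176 of Tnc overlap exons of noncoding transcripts on the opposite strand that are not in the tables, and without strand such reads cannot be told apart.

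Tnc (ENSMUSG00000028364, chr4:63959785-64020725, minus strand) encodes tenascin C, a hexameric glycoprotein of embryonic mesenchyme and healing wounds that modulates adhesion to fibronectin. Its values were 480 and 491 units in P0, 237 and 386 in P1 and 360 and 551 in P2 cells. Both P1 libraries lay below both P0 libraries, whereas the P2 libraries lay on either side of them. The difference was -0.68 ± 0.28 in P1 (adjusted p = 0.0789, limma) and -0.12 ± 0.28 in P2 (adjusted p = 0.721, limma), so neither passed. Without the higher P1 value the P1 difference was -1.03 and was called lower, and without the lower P1 value it was -0.33 and was not.

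Postn (ENSMUSG00000027750, chr3:54361109-54391034, plus strand) encodes periostin, a fasciclin-domain protein of periosteum, periodontal ligament and dental mesenchyme that promotes collagen cross-linking. It was 3428 units in both P0 libraries, 2341 in both P1 libraries and 2342 in both P2 libraries. The log2 difference was -0.55 ± 0.08 in P1 (adjusted p = 0.00178, limma) and -0.55 ± 0.08 in P2 (adjusted p = 0.00141, limma), below the fold minimum in each. Because the 2 libraries were equal in every passage, the SE and p-values hold no spread of Postn itself. They come from the spread of the other genes in the fit. Before scaling the P0 values were 64173 and the cultured values 43833, which are neighbouring steps of the normalized distribution. The difference therefore equals a move by 1 step, and in every passage more than 99% of genes lay below Postn (99.9% in P0, 99.8% in P1 and 99.8% in P2).

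Sparc (ENSMUSG00000018593, chr11:55394500-55420080, minus strand) encodes osteonectin, a collagen-binding glycoprotein of bone, dentin and remodelling connective tissue. It measured 594 units in both P0 libraries, 2341 and 7148 in P1 and 7149 in both P2 libraries. All cultured libraries lay above the P0 level. The log2 change was 2.78 ± 0.47 in P1 (adjusted p = 0.00349, limma) and 3.59 ± 0.47 in P2 (adjusted p = 0.00105, limma). The P1 libraries differed widely, and without 1 or the other of them the P1 change was 1.98 to 3.59 and stayed a call. Both P2 values and 1 P1 value were at 133818 before scaling, the highest value any gene had, so the size of the change is not exact.

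Between the cultures (P2 against P1), limma called 0 of the 10 genes in either direction, and 2 had an unadjusted p under 0.05. In the same comparison 0.0878% of all genes were called higher and 0.211% lower. The 2 genes were Wisp1, with a change of 0.65 ± 0.12 (adjusted p = 0.0675, limma), and Wisp2, with 1.11 ± 0.32 (adjusted p = 0.200, limma). The P2 libraries of both genes lay above the P1 libraries. The median change of the 10 genes was 0.53, against 0.003 for all genes. The gap between the 2 libraries of P1 was wide for these genes, with a median of 0.72 on the log2 scale, against 0.18 for all genes. The same gap was 0.12 for the 10 genes and 0.10 for all genes in P0, and 0.29 and 0.17 in P2. This spread limits what could be told between P1 and P2: the 95% interval of the P2 against P1 difference ran from -0.52 to 1.92 for Ctgf and from -1.05 to 1.86 for Thbs2.

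**Figure D3:**
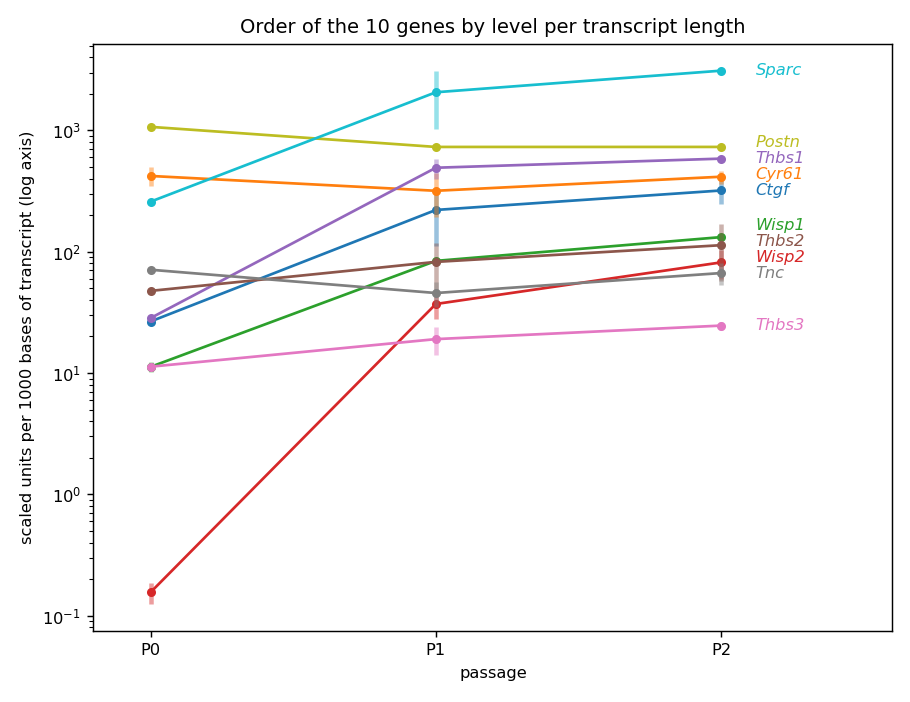
Scaled units per 1000 bases of transcript (log axis) by passage for the 10 genes, with points for the mean of 2 libraries and vertical bars from the lower to the higher library. Postn leads in P0 at 1070 and Sparc in P2 at 3108, while Wisp2 is at 0.155 in P0 and 81.6 in P2.

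Levels of different genes were compared as scaled units per 1000 bases of transcript. In P0 cells the order was Postn (1070), Cyr61 (421), Sparc (258), Tnc (71.0), Thbs2 (47.5), Thbs1 (28.3), Ctgf (26.6), Thbs3 (11.3), Wisp1 (11.2) and Wisp2 (0.155), and only the neighbours Thbs3 and Wisp1 overlapped between libraries. In P1 cells it was Sparc (2063), Postn (730), Thbs1 (492), Cyr61 (318), Ctgf (221), Wisp1 (84.0), Thbs2 (82.4), Tnc (45.6), Wisp2 (37.1) and Thbs3 (19.0). There the neighbouring pairs from Thbs1 through Cyr61 to Ctgf overlapped, as did those from Wisp1 through Thbs2 and Tnc to Wisp2. In P2 cells it was Sparc (3108), Postn (731), Thbs1 (585), Cyr61 (415), Ctgf (320), Wisp1 (132), Thbs2 (113), Wisp2 (81.6), Tnc (66.7) and Thbs3 (24.6). Cyr61 and Ctgf overlapped, and so did the run from Wisp1 through Thbs2 and Wisp2 to Tnc. Thus Cyr61 was 421 units per 1000 bases in P0 where Ctgf was 26.6, and their libraries overlapped in P1 and in P2.

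The genes whose 3 passage means ran closest to each of the 10 are named as a description, over 3 means of 2 libraries each. The distance is that between centred log2 profiles. Lox, the lysyl oxidase that cross-links collagen and elastin, was nearest to Thbs1 at a distance of 0.02, with 164 units in P0, 2883 in P1 and 3427 in P2, followed by Il17rc, a subunit of the interleukin 17 receptor, at 0.13. Lox and Thbs1 lay on the same top steps in both cultures, so their closeness is partly set by those steps. Pamr1 was nearest to both Ctgf and Wisp1, each at 0.03, with 2.38, 23.3 and 37.7 units. The second nearest gene to Ctgf was Wisp1 at 0.04 and that to Wisp1 was Slc2a6, a glucose transporter, at 0.03. Wisp2 had few near neighbours: Tnfrsf11b, the secreted RANKL decoy osteoprotegerin, at 0.13 (6.25, 346 and 847 units) and Cemip, a protein of hyaluronan degradation, at 0.29 (1.90, 188 and 327 units). Sparc lay nearest to Gm5884 and Ctgf. Cyr61 lay nearest to Rora and Gabarapl1, Thbs2 to Pgf and Gm5900, Thbs3 to Ppm1h and Fzd8, Tnc to Tsc22d3 and Col8a2, and Postn to Cct5 and Slc36a4. Postn, whose profile is nearly flat, had 1846 genes within a distance of 0.25, and Wisp2 had 1.

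Related matricellular genes outside the 10 went both ways. Of 26 listed, 17 were measured: 6 were called higher and 7 lower in P1 against P0 cells, beside 12.2% and 12.0% of all genes, and 5 higher and 7 lower in P2 against P0, beside 14.0% and 14.4%. Their median log2 change was 0.66 in P1 and 0.50 in P2. Nov, the CCN3 gene of the same family as Ctgf, rose by 3.86 ± 0.16 in P1 and 4.62 ± 0.16 in P2 (adjusted p = 1.59e-05, limma), with 24.2 and 31.3 units in P1 and 45.6 and 48.5 in P2, against 0.855 and 1.07 units in P0. Thbs4, the pentameric thrombospondin of muscle and tendon, fell, with changes of -1.72 in P1 and -1.78 in P2, though its level was low, at 1.18 and 2.03 units in P1 and 1.07 and 1.92 in P2, against 6.84 and 8.07 in P0. Tnn, tenascin N, rose by 2.19 and 1.69. Every measured gene had at least 2 libraries at 101 or more before scaling. Nov met this level only through the cultured libraries and Thbs4 only through P0, so these directions are partly a condition of being measured.

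Several genes of the Sparc family were lower in culture. Sparcl1, or hevin, fell, with changes of -2.03 in P1 and -2.63 in P2, and so did Smoc2, which carries a Sparc-type calcium-binding module, at -2.63 and -3.38. The testican proteoglycans Spock1 and Spock2 fell as well, Spock1 at -4.17 and -4.46 and Spock2 at -3.14 and -3.79, whereas Spock3 differed by 0.68 and 0.50 and was not called. Spock1, like Thbs4, met the level for being measured only through P0. Fstl1, a follistatin-like glycoprotein of mesenchyme, differed by 0.74 and 0.92 and was not called. Its level was high throughout, at 1023 units on average in P0, 1720 in P1 and 1937 in P2.

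Of the mineralized tissue proteins, Spp1 (osteopontin) rose by 2.54 ± 0.43 in P1 and 2.82 ± 0.43 in P2. Bone sialoprotein (Ibsp) fell, at -2.39 and -5.57 on the log2 scale, with 7.48 and 10.8 units in P1 and 0 and 0.214 in P2, against 48.5 and 54.4 in P0. Ibsp was the only 1 of the 17 to be called between the cultures, lower in P2 against P1 at -3.18 ± 0.21 (adjusted p = 0.0301, limma), a call that was lost, at an adjusted p of 0.22 in limma, once the P0 libraries were left out of the fit. Of the fibulins, Fbln5, which takes part in elastic fibre assembly, rose by 2.68 and 3.11, and Fbln1 fell, at -1.80 and -2.41. Ecm1 rose by 2.57 and 2.90, with 4.27 and 6.09 units in P1 and 6.41 and 6.95 in P2, against 0 and 0.0534 in P0. Like Nov, Ecm1 met the level for being measured only through the cultured libraries. The sizes for genes near 0 in a passage depend on the pseudocount: with 0.1 and with 5 the P2 change was 5.77 and 1.22 for Ecm1, -8.18 and -3.47 for Ibsp, and -6.21 and -2.59 for Spock1. Tgfbi, the fasciclin protein closest to periostin, was called higher in P1 at 1.03 and not in P2 at 0.88. Emilin1 (-0.12 and -0.05) and Angptl2 (0.66 and 0.72) were not called.

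**Figure D4:**
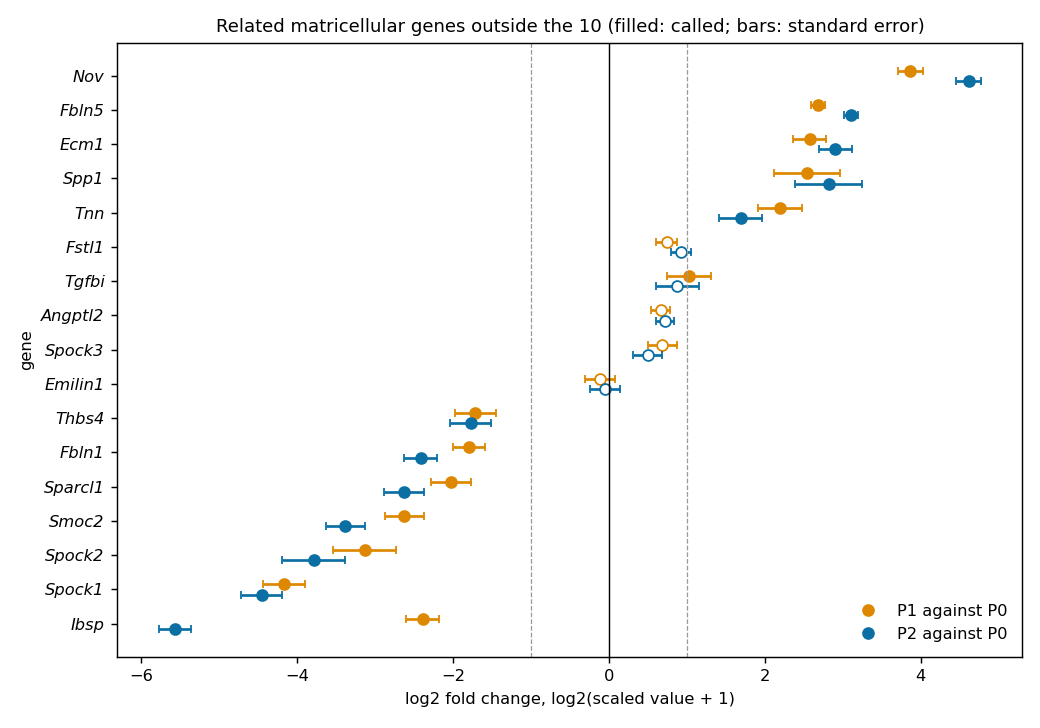
Log2 fold change with its standard error (bars) of the 17 measured matricellular genes outside the 10, in P1 and in P2 against P0, ordered by the P2 change, with filled points for calls and dashed lines at 2-fold. In P2 the values run from 4.62 for Nov to -5.57 for Ibsp.

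The genes listed as receptors for these proteins, mainly integrins with CD36, CD47, syndecans and others, were more often called higher than lower. Of 33 listed, 31 were measured: 12 were called higher and 4 lower in P1 against P0 cells, beside 12.2% and 12.0% of all genes, 13 higher and 3 lower in P2 against P0, beside 14.0% and 14.4%, and 0 in P2 against P1. The median change was 0.55 in P1 and 0.78 in P2. The largest rises were those of Ptprb, the receptor phosphatase known from endothelium as VE-PTP (4.35 and 5.13), Itga8 (3.06 and 3.77) and Itga7 (2.61 and 3.47), the alpha 8 and alpha 7 integrin chains. Ptprb is named as a member of the list, and whether it binds any of these proteins was not tested. Stab1, a scavenger receptor of macrophages and sinusoidal endothelium that takes up Sparc, fell, at -4.78 and -4.02. Itga7 met the level for being measured only through the cultured libraries, and Stab1 only through P0. The same held for Itga3 as for Itga7, with 4.81 and 5.02 units in P0 and rises of 2.53 and 2.45. These directions, which are part of the counts above, are partly a condition of being measured. Of the thrombospondin 1 receptors, Cd47 rose by 1.96 and 2.29, whereas Cd36 was called lower in P1 at -1.12 and was at -0.94 in P2, under the fold minimum. Itgav, the alpha chain shared by several integrins that bind CCN proteins and periostin, rose by 1.71 and 2.03. Itga3, Cd47, Cd36 and Itgav were chosen after their values were seen.

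YAP and serum response factor are transcriptional regulators that answer to tension and serum. The list drawn up for them holds both the regulators, such as Yap1, the Tead factors, Lats kinases, Srf and its cofactors, and genes they act on, and 23 of its 24 genes were measured. In P1 against P0, 13 were called higher and 2 lower, beside 12.2% and 12.0% of all genes, in P2 against P0 14 higher and 2 lower, beside 14.0% and 14.4%, and in P2 against P1 0. Both lower calls were regulators, Tead2 (-1.23 and -1.48) and Vgll4 (-1.52 and -1.56), named after their values were seen. The median change was 1.27 in P1 and 1.21 in P2. The largest rises were those of the contractile genes Acta2 (8.09 in each), Cnn1 (7.31 and 7.72) and Tagln (6.41 and 6.22). Acta2 was at the highest value of the table in all 4 cultured libraries, so its change is not exact and cannot show a difference between P1 and P2. Cnn1 stood at 0.0534 and 0.107 units in P0, and its P2 change was 10.3 with a pseudocount of 0.1, above the 8.15 of Acta2, and 5.51 with one of 5. Ankrd1, a nuclear ankyrin repeat protein and YAP target, rose by 2.69 and 3.74, with 2.62 and 15.5 units in P1 and 11.8 and 18.8 in P2, against 0 and 0.427 in P0. Cnn1, Ankrd1 and Tead4 met the level for being measured only through the cultured libraries, so their rises are partly a condition of being measured. Ctgf and Cyr61 are both known YAP targets, and of the pair only Ctgf was called in P1 or in P2 against P0. The difference between the 2 genes was not tested.

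The cell type markers differed between the passages in both directions. The 10 markers of pericytes and smooth muscle summed to 508 units in P0, 10311 in P1 and 10103 in P2 cells, with library sums of 482 to 535 in P0, 9271 to 11350 in P1 and 9617 to 10588 in P2 when the lower and the higher values were added up separately. Acta2 gave 7148 of these units in P1 and 7149 in P2, and Tagln 2468 and 2013, so the sum in culture is carried by these genes. Of the 10 markers, 5 were called higher and 3 lower in each culture, and Acta2, Cnn1 and Tagln are on both that list and the YAP and SRF list. The endothelial markers fell for 12 of 12 genes in P1 and in P2, with Cldn5, Robo4 and Tie1 at 0 in both cultures and Cdh5 also at 0 in P2. Cldn5, Robo4 and Tie1 could meet the level for being measured only through P0, so their fall was fixed by that condition. The lower and the higher values of all 12 genes summed to 13.4 and 22.8 units in P1 and to 8.44 and 18.4 in P2. These sums are too low for each of the others to reach 101 before scaling in 2 cultured libraries. The count of 12 is therefore partly set by that condition and is no support. The 4 measured macrophage genes (of 12 listed) summed to 65.9 units in P0, 17.3 in P1 and 52.7 in P2, the 6 osteoblast genes (of 8) to 270, 158 and 184, the 3 Schwann cell genes (of 7) to 107, 7.37 and 3.58, and the 6 tendon and cartilage genes (of 9) to 160, 127 and 125. Spp1 gave 127 units of the osteoblast sum in P1 and 168 in P2, while 5 of the 6 osteoblast genes were called lower in each culture, with median changes of -2.43 and -3.53. The lower and the higher Schwann cell values summed to 6.94 and 7.80 units in P1 and to 2.67 and 4.49 in P2. Not all 3 genes could reach the level for being measured in culture, so their fall is partly set by it. In bulk RNA of this kind, fewer cells of a type and less RNA per cell cannot be told apart. The part of the changing cell makeup in the values of the 10 genes was not tested.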

How the data were processed

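RNA-seq libraries of 6 samples, 2 per passage, were analysed. The reads were mapped by the authors to the mouse transcriptome (mm10) and quantified with RSEM (version 1.1.21 in the submitters' processing notes; the methods name another version), then normalized for GC content with EDASeq. The deposited values are a normalized score per gene, given as a mean and an error per passage, and are not counts. Both library values were recovered as the mean plus and minus the error times the square root of 2. They were whole for all 11386 genes in each passage within 1e-06, but not tied to replicate numbers. Values were scaled to 1000000 per passage (1 unit is 18.7 deposited) and tested on log2(value + 1) with limma 3.58.1 in R 4.3.3 (lmFit, eBayes with trend, 2-sided), with 3 residual and 3.06 prior degrees of freedom. Calls needed an adjusted p under 0.05 and a 2-fold change. The scripts were tested on simulated data. Intervals are 95%. 1 line per table was empty, 18 gene names turned into dates were restored from their Ensembl identifiers, and 0 columns were unassigned.

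The 10 genes and all lists were chosen with earlier results of these data known. The text names the 10 genes, every measured gene of the related matricellular list, at most 4 genes with the largest called changes of the receptor and YAP and SRF lists, and the 2 nearest profiles of each of the 10. Genes named beyond this were chosen after their values were seen, as the text says. Promoter sequences are from RefSeq (GRCm38.p6), and transcript lengths and overlaps from GENCODE vM21. Alternatives were the pseudocount, a filter on low values, 2 other scalings, a fit to 4 libraries, no variance trend, 2 other thresholds and leaving out single values.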

Additional observations from a re-analysis of the deposited data

How the results depend on the processing

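The 10 genes kept their direction and their call (p and fold together) in all 210 alternative values that kept every value of the passages compared. The adjusted p of Thbs3 in P1 against P0, 0.0485 in limma and under the fold minimum, was 0.0508 with a pseudocount of 5, 0.0541 and 0.0512 under the other scalings, 0.0665 with 4 libraries and 0.0584 without the trend. Without a fold minimum 6 genes in place of 5 were called higher in P1 against P0 (Thbs3 joined), 1 gene (Postn) was called lower in P1 against P0 and 1 in P2 against P0, and 6685, 7248 and 122 of all genes were called in P1 against P0, P2 against P0 and P2 against P1. The 34 genes called in P2 against P1 became 19 with a pseudocount of 5, 0 with only the 4 libraries compared, 2 without the variance trend and 0 at an adjusted p under 0.01. The filter of 5 units in 2 libraries removed no gene. Thbs4 was not called with a pseudocount of 5 (-0.92 in P1 and -0.94 in P2), nor was Ankrd1 in P1 (1.26, adjusted p = 0.0506, limma).

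With single values left out, the log2 change ran in P1 against P0 from -1.11 to 0.10 for Cyr61 and from -0.025 to 1.31 for Thbs2. In P2 against P0 it ran from -0.27 to 0.25 for Cyr61 and from -0.43 to 0.18 for Tnc. In P2 against P1 it ran from -0.088 to 1.49 for Ctgf, from -0.11 to 1.10 for Cyr61 and from -0.38 to 1.19 for Thbs2. Sparc in P2 against P1 was called higher, at 1.61, without the higher P1 value, and Thbs3 in P1 against P0, at 1.06, without the lower P1 value. A lone value is assumed to vary like the other passages. Counts of called genes were not recomputed this way, because the values left out do not belong to a known library.

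No paired analysis was possible because the tables give a mean and an error per passage, so that a value cannot be tied to a replicate number. Depth is unknown, 2 libraries per passage leave few degrees of freedom, and the stepped top values limit the fold changes of Thbs1, Postn, Sparc and Acta2.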

Other observations

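Both libraries of a passage held exactly equal values for more genes at the top of the table than elsewhere. Over all 11386 genes 2.71% had equal values in P0, 1.72% in P1 and 2.07% in P2, whereas among the 500 genes with the highest means the share was 21.6%, 12.0% and 15.0%. Of the 10 matricellular genes, Postn and Sparc had equal values in P0, Postn in P1, and Wisp1, Thbs1, Postn and Sparc in P2. For these genes an equal pair is a shared step of the normalized distribution and does not measure how closely the libraries agreed.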
